A study of Rattus norvegicus with 2 samples.

Results

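Astrocyte marker genes were examined in rat intracranial arterial tissue. The set was a fixed list of 7 genes (Gfap, Aqp4, Aldoc, S100b, Aldh1l1, Gja1 and Agt) out of 15159 genes that had a matched probe. All 7 had at least 1 probe, and every one of their 11 probes and 44 spots per array was used. One library was total RNA of intracranial arterial wall from an untreated animal or animals (control, 1 array), and the other was total RNA of an aneurysm lesion, collected 3 weeks from its induction (aneurysm, 1 array). Rat strain, sex, age, the way the lesion was induced and any pooling of animals are not stated in the labels. With 1 array per group there is no replicate check, no test across samples and no p-value, so each difference describes these 2 libraries.

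Astrocytes are glial cells of the central nervous system whose endfeet cover brain vessels. They build a filament network that contains Gfap, take up potassium and glutamate, move water through Aqp4 at the endfoot, and are joined to each other by gap junctions of Gja1. An artery on the brain surface lies next to this tissue but has no astrocytes in its own wall. Several of the 7 genes are also made elsewhere: Gja1 in endothelium, smooth muscle and fibroblasts, S100b in Schwann cells and oligodendrocyte precursors, and Agt and Aldh1l1 in liver.

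The scanner signal of each spot was put on the log2 scale after division by the 75th percentile of its array, 621 in the control against 801 in the aneurysm library, and is called the scaled signal here. A difference is the scaled signal of the aneurysm library minus that of the control. Errors after ± are spot errors: they come from how far repeat spots of a probe lay apart on the same array, and hold no variation between animals. Scaled signals of different probes are not set against each other, because probes differ in brightness for the same amount of RNA. The scanner software marked 74.7% of the control array's non-control spots as well above background and 76.4% of the aneurysm array's, and marked none as saturated. All 10 smooth muscle genes and all 9 endothelial genes with a probe were well above background in both libraries. So were all 14 oligodendrocyte and all 10 microglia markers, and 11201 of the 15159 genes with a matched probe. Passing this flag therefore cannot tell arterial wall from other tissue, and the label was not checked further.

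All 7 astrocyte markers were well above background in both libraries, at all of their spots. At the probe with the brightest signal, 6 of 7 had a lower scaled signal in the aneurysm library, against 49.8% of all 11902 genes with a value, and Gja1 was higher. The median difference of the 7 was -0.47, and that of all genes was 0.001. The differences ran from -0.97 for Agt to 0.13 for Gja1. None of the 7 reached 2-fold in either direction, and across all genes 3.91% were at least 2-fold lower and 0.882% at least 2-fold higher. In bulk tissue, fewer astrocytes and less of these RNAs per cell cannot be told apart.

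The sign of the smaller differences depended on how the arrays were put on one scale. With scaling on 7 spike-in control RNAs, the median of all genes moved up by 0.31, and 17.5% of all genes were lower. At their brightest probes, Gfap (0.03) and Aqp4 (0.13) were then higher in the aneurysm library. The other lower genes stayed lower at theirs. A setting that shifts all genes alike, such as spike-in scaling, cannot move a gene to the other side of the median of all genes, and the filters left the 7 values as they were. Under the settings that change genes unequally (both normexp runs, quantile, loess and the mean over probes), the same 6 genes lay below that median and Gja1 above it. A lower value below means lower relative to the bulk of genes on these arrays.

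**Figure D1:**
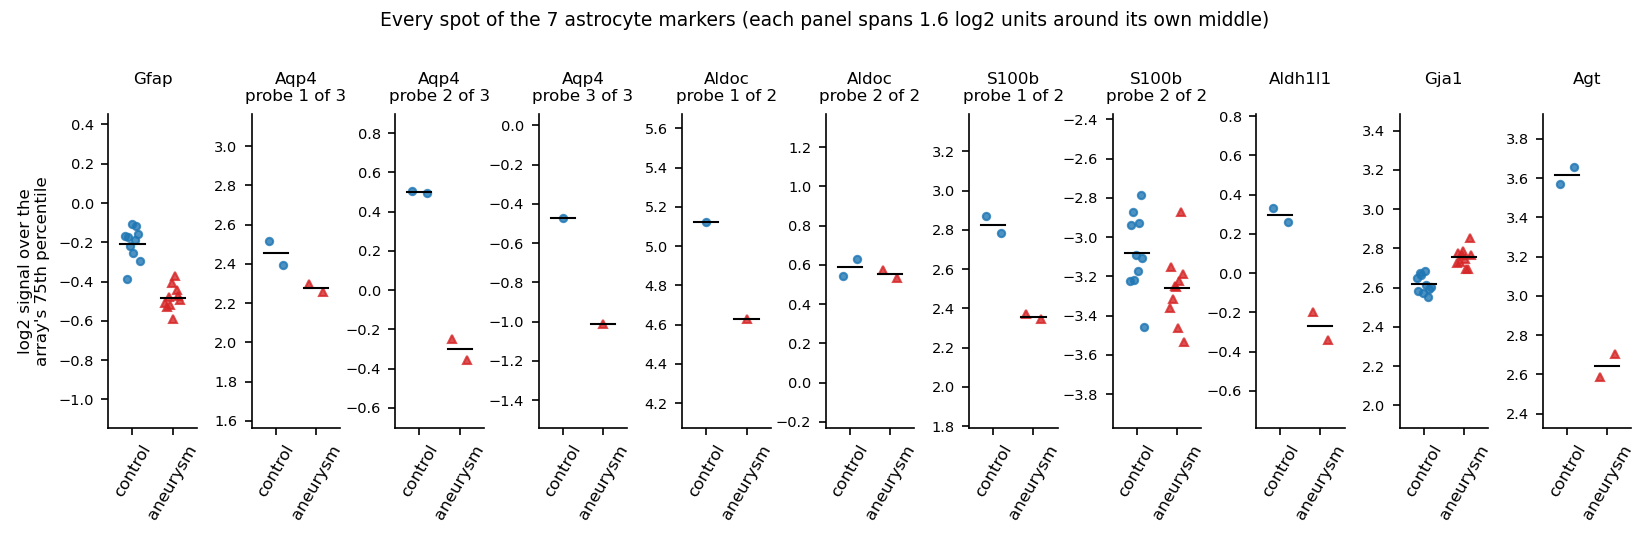
Scaled log2 signal of every spot of the 7 astrocyte markers in the control (circles) and aneurysm (triangles) library, 1 panel per probe, with the mean of the spots as a bar; each panel has its own axis range of equal height. The 10 Gja1 spots of the aneurysm library all lie above the 10 of the control, the Agt spots lie far apart, and the spots of 3 of 11 probes overlap between the libraries.

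Gfap encodes the intermediate filament protein that defines astrocytes, and it was measured by 1 probe with 10 spots per array. Its scaled signal was -0.39 at the lowest, -0.18 at the median and -0.11 at the highest spot of the control library. In the aneurysm library the lowest spot was at -0.59, the median at -0.49 and the highest at -0.37. The libraries overlapped only at the edges, where the highest aneurysm spot was just above the lowest control spot. The difference was -0.27 ± 0.04, or 1.21-fold lower in the aneurysm library. Of all genes with a value, 19.8% had a difference as low or lower. Before scaling, the signal of the median Gfap spot was 547 in the control against 572 in the aneurysm library; the scaled value is lower because the 75th percentile of the aneurysm array was higher.

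Other intermediate filament genes did not share 1 direction. Of 11 with a value, 7 were lower and 4 higher, with a median of -0.21 (0.10 with spike-in scaling) and none at 2-fold. The neuronal filament genes were on the lower side, with Ina at -0.82 ± 0.09, Nefh at -0.75 ± 0.14, Prph at -0.63 ± 0.21, Nefl at -0.61 ± 0.14 and Nefm at -0.21 ± 0.03. The 4 higher genes are made in vessel muscle, fibroblasts or reactive astrocytes, and the part of these cells in their values was not tested. Vim, the filament of mesenchymal cells and reactive glia, was at 0.49 ± 0.02, desmin gene Des at 0.49 ± 0.05, synemin gene Synm at 0.31 ± 0.06 and nestin gene Nes at 0.12 ± 0.06. The nuclear lamina genes Lmna and Lmnb1 were at -0.05 and -0.32. With spike-in scaling Nefm turned to 0.10 and Lmna to 0.26.

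Aqp4 encodes the water channel of the astrocyte endfoot, and its 3 probes gave unequal differences. At the brightest probe the 2 control spots were at 2.52 and 2.39 and the 2 aneurysm spots at 2.30 and 2.26, a difference of -0.18 ± 0.06. At the next probe the control spots were at 0.51 and 0.49 and the aneurysm spots at -0.25 and -0.36, a difference of -0.80 ± 0.07. The probe with 1 spot per array was at -0.47 in the control against -1.01 in the aneurysm library, a difference of -0.54 ± 0.12. All 3 were lower in the aneurysm library and none of their spots overlapped, but the most distant pair of probes differed by 0.62 ± 0.09. Among 1906 genes with several probes well above background in both libraries the median gap between probes was 0.23, and 9.34% had a gap as large as that of Aqp4. The mean over the 3 Aqp4 probes was -0.51, further from 0 than the brightest probe alone. With spike-in scaling the brightest probe turned to 0.13, whereas the others stayed lower, at -0.23 and -0.49. The files do not say which part of the transcript each probe covers.

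Of the other aquaporin genes, 7 of 11 had a value, and 6 of these were lower, with a median of -0.29 (0.02 with spike-in scaling). Aqp1, the water channel of choroid plexus and endothelium outside the brain, was at -0.51 ± 0.03 over 10 spots. Aqp9, a glycerol channel of liver, was at -0.94 ± 0.10. The dim genes Aqp8 (-0.29 ± 0.40), Aqp2 (-0.17 ± 0.21), Mip (-0.07 ± 0.27) and Aqp11 (0.05 ± 0.20) differed by less than their spot error. Aqp5 passed the background flag only in the control and was at least 2.29-fold lower in the aneurysm library, a bound with a spot error of 0.77 that was -0.44 with normexp background correction. Aqp3, Aqp6, Aqp7 and Aqp12a were not well above background in either library.

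Gja1 encodes a connexin, the main gap junction protein of astrocytes and also of vessel wall cells, and it was the 1 member that was higher in the aneurysm library. Over 10 spots the control library had a lowest scaled signal of 2.55, a median of 2.61 and a highest of 2.69. The aneurysm library had a lowest of 2.69, a median of 2.75 and a highest of 2.85. The ranges touched at their ends without overlap. The difference was 0.13 ± 0.03, a 1.097-fold higher signal, and 31.6% of all genes had a difference as high or higher. It ranged from 0.11 with quantile normalization to 0.44 with spike-in scaling. Vessel wall genes had values of a like size: the median was 0.17 for 10 smooth muscle markers, 0.17 for 9 endothelial markers and 0.11 for 10 fibroblast and leptomeningeal markers. Their part in the Gja1 value was not tested.

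Among the other connexin genes, 9 of 15 with a probe had a value, with 5 higher and 4 lower and a median of 0.14, which was -0.02 with normexp and -0.11 without a filter on dim genes. The other astrocyte connexin gene with a value, Gjb6, was at -0.04 ± 0.02 over 9 spots, and turned to 0.27 with spike-in scaling. Gjb2, a connexin gene of leptomeninges, was at 0.19 ± 0.02. Of the endothelial and smooth muscle connexins, Gja5 was 2.18-fold higher (1.13 ± 0.09), Gja4 was at 0.14 ± 0.06 and Gjc1 at 0.39 ± 0.19. Gjb1, found in oligodendrocytes and liver, was at -0.66 ± 0.44 and Gjb5 at 0.24 ± 0.51.

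The promoters of Gfap and Gja1 are shown because these are the members measured by 10 spots at their only probe, with values on opposite sides of the median gene. Both sequences run 5′ to 3′ from 250 bases before to 50 bases after the gene start, from RefSeq on build GRCr8, and 6 of the 7 members (all but Agt) had an entry. Gfap lies on the minus strand at chr10:88361612-88361911 and Gja1 on the plus strand at chr20:36302314-36302613. Capitals mark any match, on either strand, to 5 motifs: the TATA box TATAAA, the AP-1 motif TGANTCA, the STAT motif TTCNNNGAA, the CCAAT box CCAAT and the GC box GGGCGG.
Gfap: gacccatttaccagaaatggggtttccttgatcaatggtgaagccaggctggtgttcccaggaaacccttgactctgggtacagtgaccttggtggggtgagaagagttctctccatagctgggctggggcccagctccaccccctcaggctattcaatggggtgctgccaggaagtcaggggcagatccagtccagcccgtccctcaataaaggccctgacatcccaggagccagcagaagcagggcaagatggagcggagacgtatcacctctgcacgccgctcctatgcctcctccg
Gja1: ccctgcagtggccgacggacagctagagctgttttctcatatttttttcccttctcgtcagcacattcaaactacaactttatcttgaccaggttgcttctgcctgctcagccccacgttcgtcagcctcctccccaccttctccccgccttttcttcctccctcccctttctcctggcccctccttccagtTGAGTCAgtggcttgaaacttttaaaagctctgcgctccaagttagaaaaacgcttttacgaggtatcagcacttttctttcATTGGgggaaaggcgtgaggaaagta
The Gfap window held none of the 5 motifs. The Gja1 window held 1 AP-1 match, which starts 58 bases before the gene start, and 1 CCAAT match on the minus strand after the start. Of 33469 promoter windows of the same length, 7.33% held the AP-1 motif, 37.5% CCAAT, 33.1% the GC box, 14.2% the TATA box and 8.87% the STAT motif. Among the 7 windows of the 6 members, 1 held AP-1, 4 CCAAT, 3 the GC box and 0 the TATA box or the STAT motif. A match describes letters in the sequence and not a bound site.

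Aldoc encodes the aldolase of brain glycolysis, which astrocytes carry at high levels, and its 2 probes differed. The brighter probe had 1 spot per array, at 5.12 in the control against 4.63 in the aneurysm library, a difference of -0.49 ± 0.07. The other probe had 2 spots, at 0.54 and 0.63 in the control and at 0.58 and 0.53 in the aneurysm library. These overlapped, and the difference of -0.03 ± 0.06 was within the spot error. The gap between the probes was 0.46 ± 0.10, and 20.04% of genes with several probes had a gap as large. Over both probes the mean was -0.26, so the value of Aldoc rested on its single bright spot. With spike-in scaling the brighter probe stayed lower (-0.18) and the other turned to 0.27.

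Of the related genes, Aldoa, the isozyme of muscle and most tissues, was at 0.31 ± 0.06, on the other side of 0 from Aldoc.

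S100b encodes a calcium-binding protein of astrocytes and Schwann cells. At its brighter probe the control spots were at 2.87 and 2.78 and the aneurysm spots at 2.37 and 2.34, a difference of -0.47 ± 0.06 (1.38-fold). At the dimmer probe, with 10 spots, the control library had a lowest value of -3.46, a median of -3.10 and a highest of -2.79, and the aneurysm library -3.54, -3.25 and -2.87. There the spots overlapped over most of their range, and the difference was -0.18 ± 0.08. Both probes were lower in the aneurysm library; with spike-in scaling the first stayed lower (-0.16) and the second turned to 0.13.

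Of 13 other S100 genes, 11 had a value, with 6 lower and 5 higher and a median of -0.03, which turned to 0.28 with spike-in scaling. S100a5 was 3.88-fold lower (-1.96 ± 0.17). S100a8 and S100a9, the calprotectin genes of neutrophils, were at -0.32 ± 0.18 and -0.36 ± 0.14. S100a1 was at -0.15, S100a13 at -0.27 and S100a3 at -0.03. The genes S100a6 (0.36 ± 0.05), S100a11 (0.26), S100a10 (0.22), S100a4 (0.17) and S100a16 (0.06), which are made by fibroblasts and other connective tissue cells, were on the higher side. The Schwann cell list, a check on another source of S100b, had a median of -0.31 over 6 genes, and Sox10, which oligodendrocytes also express, was at -0.82 ± 0.08. Its peripheral myelin gene Prx, named after its value had been seen, was at -0.02 ± 0.27, and Pmp22 was at 0.45 ± 0.06. The part of these cells in the S100b value was not tested.

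Aldh1l1 encodes a cytosolic folate dehydrogenase that marks astrocytes in brain and is abundant in liver. Its probe had 2 spots per array, at 0.33 and 0.26 in the control and at -0.20 and -0.34 in the aneurysm library. Both aneurysm spots lay well below both control spots, and the difference was -0.57 ± 0.07, or 1.48-fold lower in the aneurysm library. Of all genes with a value, 8.81% had a difference as low or lower. Quantile normalization gave -0.60 and spike-in scaling -0.26.

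The other genes of folate metabolism were near the bulk of genes. Of 17 with a value, 9 were lower and 8 higher, and the median was -0.03 (0.28 with spike-in scaling). The lowest were Gnmt, glycine N-methyltransferase of liver, at -1.16 ± 0.10 (-0.99 with normexp), and Ftcd, another liver enzyme, at -0.40 ± 0.09. The mitochondrial counterpart Aldh1l2 was at -0.07 ± 0.20. Thymidylate synthase gene Tyms (0.37 ± 0.39) and the folate receptor gene Folr1 (0.33 ± 0.19) were the highest, and with normexp they were at -0.01 and 0.11.

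Agt encodes angiotensinogen, the precursor of angiotensin, which is secreted by liver and, within the brain, by astrocytes. The control spots were at 3.57 and 3.66 and the aneurysm spots at 2.58 and 2.70. The spots of the libraries lay about 1 log2 unit apart, the widest separation among the 11 probes. The difference was -0.97 ± 0.05, or 1.96-fold lower in the aneurysm library, and 4.12% of all genes had a difference as low or lower. It stayed between -0.99 (quantile) and -0.66 (spike-in) under all settings.

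Liver genes were lower in the aneurysm library together with Agt and Aldh1l1, and by far more. Of 20 hepatocyte markers with a probe, 17 passed the background flag in the control and 12 in the lesion. Their summed scaled signal on the linear scale was 49.5 in the control against 8.76 in the other library. Of 18 with a value, 17 were at least 2-fold lower, 6 of these as bounds, with a median of -4.27, which was -3.02 with normexp. The 1 higher gene, Hnf4a, named after its value had been seen, passed the flag only in the aneurysm library, with a bound of 0.62. Albumin gene Alb was 45.8-fold lower (-5.52 ± 0.07), and Ambp (-5.65 ± 0.13), Fgb (-5.59 ± 0.18) and Fabp1 (-5.36 ± 0.18) were close to it. Apoh, Fga, Fgg, Hpd, Tdo2 and Cyp2e1 were not well above background in the aneurysm library, while Cps1 and Tat were so in neither. The part of liver RNA in the values of Agt and Aldh1l1 was not tested.

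The genes that process or sense angiotensin did not follow Agt as a group. Of 13 with a value, 6 were lower and 7 higher, with a median of 0.002, which was -0.14 with normexp. The angiotensin-(1-7) receptor gene Mas1, a neuronal gene, was at -0.51 ± 0.07. Among genes named after their values had been seen, the converting enzyme gene Ace was at 0.26 ± 0.08 and the aminopeptidase gene Anpep at 0.34 ± 0.09. The aminopeptidase gene Enpep was at 0.37 ± 0.08. The genes Agtr1a and Agtr1b of the main angiotensin receptor were at 0.21 ± 0.12 and 0.80 ± 0.39, values that were -0.05 and 0.14 with normexp. The mast cell chymase gene Cma1 was at least 2.98-fold lower, a bound with a spot error of 0.72 that was -0.57 with normexp.

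**Figure D2:**
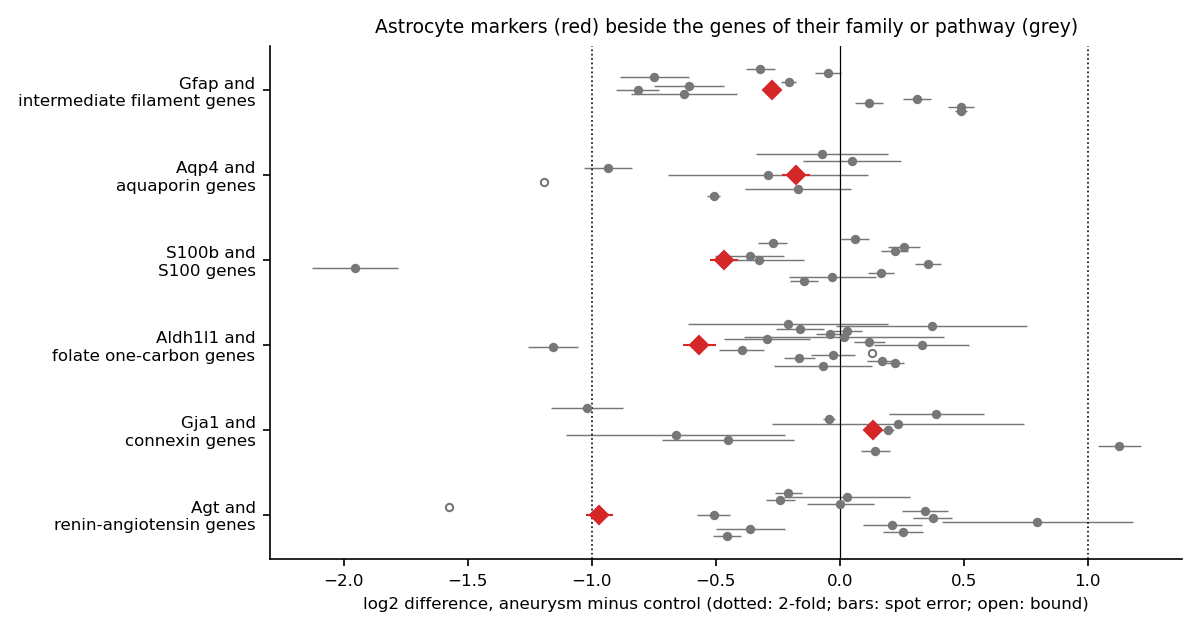
Log2 difference, aneurysm minus control, of 6 astrocyte markers (red diamonds) and of the genes in its family or pathway list (grey points), with spot errors as bars and bounds as open points. Agt at -0.97 lies below all measured renin-angiotensin genes, and Gja1 at 0.13 lies in the middle of the connexins.

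A separate list of 31 other astrocyte genes gave a like picture with a smaller shift. It had a probe for 28 genes and a value for 26. Of these, 20 were lower and 6 higher. The median was -0.29 (0.02, and 13 of 26 lower against 17.5% of all genes, with spike-in scaling). None was at 2-fold, 10 were at -0.5 or below and none at 0.5 or above, but 1 gene, Fabp7, was at least 2-fold lower with quantile normalization (-1.05) and with loess centring (-1.02). The lowest were Fabp7, a fatty acid binding protein of radial glia and astrocytes (-0.9995 ± 0.07), the amino acid transporter gene Slc7a10 (-0.96 ± 0.10), the phospholipase gene Pla2g7 (-0.96 ± 0.07) and the mitochondrial glutamate carrier gene Slc25a18 (-0.86 ± 0.09). Under every setting 13 of the 26 stayed lower and 6 stayed higher.

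By role, and named after their values had been seen, the glutamate handling genes were split. The glutamate transporter genes Slc1a2 and Slc1a3 were at -0.66 ± 0.06 and -0.09 ± 0.05 (0.22 with spike-in scaling), and glutamine synthetase gene Glul, which other tissues also make, was at 0.35 ± 0.06. The sodium pump gene Atp1b2 was at -0.04 ± 0.05, and turned to 0.27 with spike-in scaling. The growth factor receptor gene Fgfr3 was at 0.40 ± 0.09, and Mlc1, of the endfoot membrane, at 0.47 ± 0.09. Kcnj10, the endfoot potassium channel gene, and Dio2 were not well above background in either library, and Sox9, Hepacam and Rfx4 had no matched probe.

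Genes of the complex that anchors Aqp4 at the endfoot were near the bulk of genes. Of 9 with a value, 6 were lower and 3 higher, with a median of -0.09 (0.22 with spike-in scaling, and 0.06 as a mean over probes), and none was at 2-fold. Chosen by role after their values had been seen, the dystrophin gene Dmd was at -0.10 ± 0.04 (0.21 with spike-in scaling) and the agrin gene Agrn at -0.16 ± 0.05 (0.15 with spike-in scaling and 0.08 as a mean over probes). The basement membrane laminin genes Lama1 and Lamb2 were at 0.57 ± 0.13 and 0.17 ± 0.06.

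Genes that reactive astrocytes switch on had a mixed pattern. Of 20 with a value, 13 were higher and 7 lower, with a median of 0.16. With spike-in scaling 3 of 20 were lower, against 17.5% of all genes. Their median was then 0.47, against 0.31 for all genes. Emp1, a membrane protein also found in vessel cells, was 2.36-fold higher (1.24 ± 0.06). The interferon-induced genes Cxcl10 and Gbp2, named after their values had been seen, were at 0.75 ± 0.13 and 0.56 ± 0.06. On the lower side, Serpina3n was 34.3-fold lower (-5.10 ± 0.18), Lcn2 4.08-fold lower (-2.03 ± 0.30, and -1.01 with normexp) and C3 2.48-fold lower (-1.31 ± 0.06). All 3 are also acute phase genes of liver, whose markers were lower as given above, and the part of liver RNA in them was not tested.

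Markers of the other cells of brain tissue are given beside the astrocyte values, and their part in those was not tested. Of 14 oligodendrocyte markers, 13 were lower and 7 at least 2-fold lower, with a median of -1.02. With spike-in scaling 13 were still lower but 0 at least 2-fold, with a median of -0.71, and with normexp 5 were at least 2-fold lower. Their summed scaled signal was 171 in the control against 87.8 in the lesion, and Mobp was the lowest (-1.30 ± 0.06). Of 14 neuron markers with a value, 10 were lower and 2 at least 2-fold lower, led by Tubb3 (-1.22 ± 0.07). Their median was -0.38 (-0.07, and 7 lower against 17.5% of all genes and 0 at 2-fold, with spike-in scaling). Of 7 oligodendrocyte precursor genes, 5 were lower and 2 higher, with a median of -0.42 (-0.11 with spike-in scaling). Olig1 (-0.98 ± 0.03), Olig2 (-0.82 ± 0.15) and Sox10 (-0.82 ± 0.08), the lowest, are also on the oligodendrocyte list. Named after their values had been seen, Pdgfra (0.40 ± 0.02) and Cspg4 (0.36 ± 0.02), which vessel wall cells also make, were higher. The 10 microglia markers had 5 lower and 5 higher and a median of -0.06, with Cx3cr1 at -0.61 ± 0.06 and Tmem119 at 0.60 ± 0.08. Differences between these list medians were not tested, since each rests on the same 2 arrays.

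**Figure D3:**
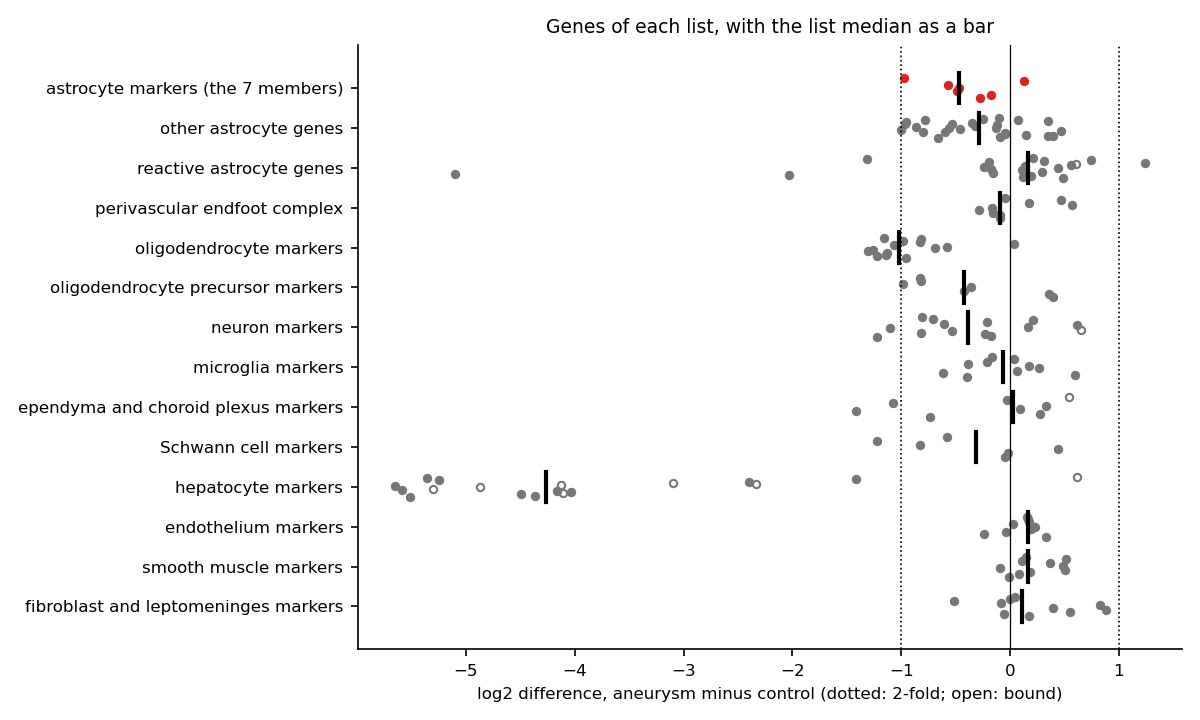
Log2 difference, aneurysm minus control, for every gene with a value in the astrocyte marker set (red) and in lists of other astrocyte genes and other cell types (grey), with bounds as open points and each list's median as a bar. The astrocyte median of -0.47 lies between that of oligodendrocytes at -1.02 and those of the vessel wall lists, which are above 0.

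**Figure D4:**
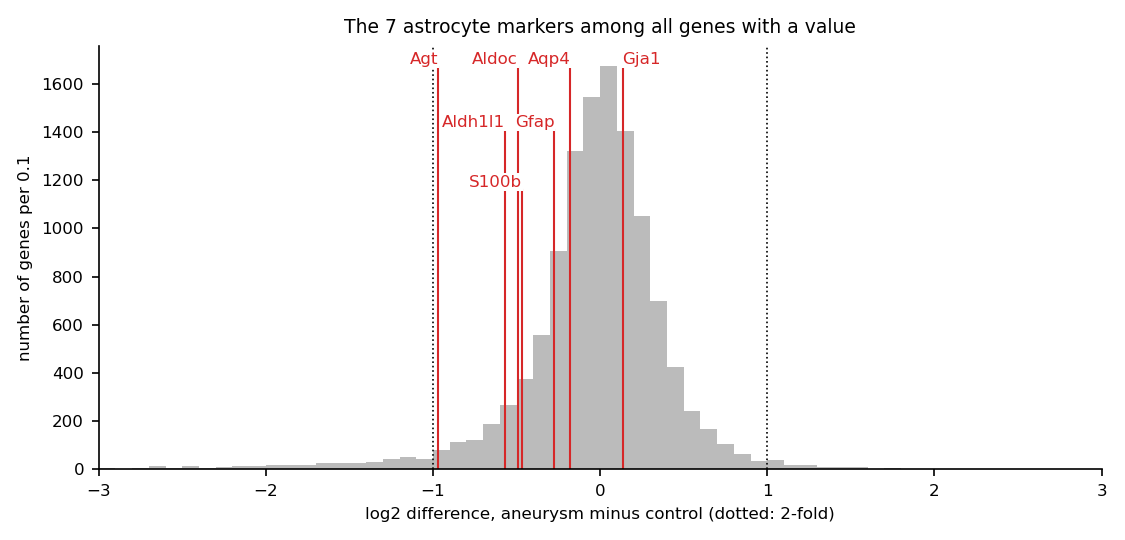
Number of genes per 0.1 log2 units of difference, aneurysm minus control, over genes with a value, with the 7 astrocyte markers as red lines and 2-fold as dotted lines; the axis ends at 3 units to either side. Agt is just inside the 2-fold line, and the other markers lie within 0.57 of zero.

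**Figure D5:**
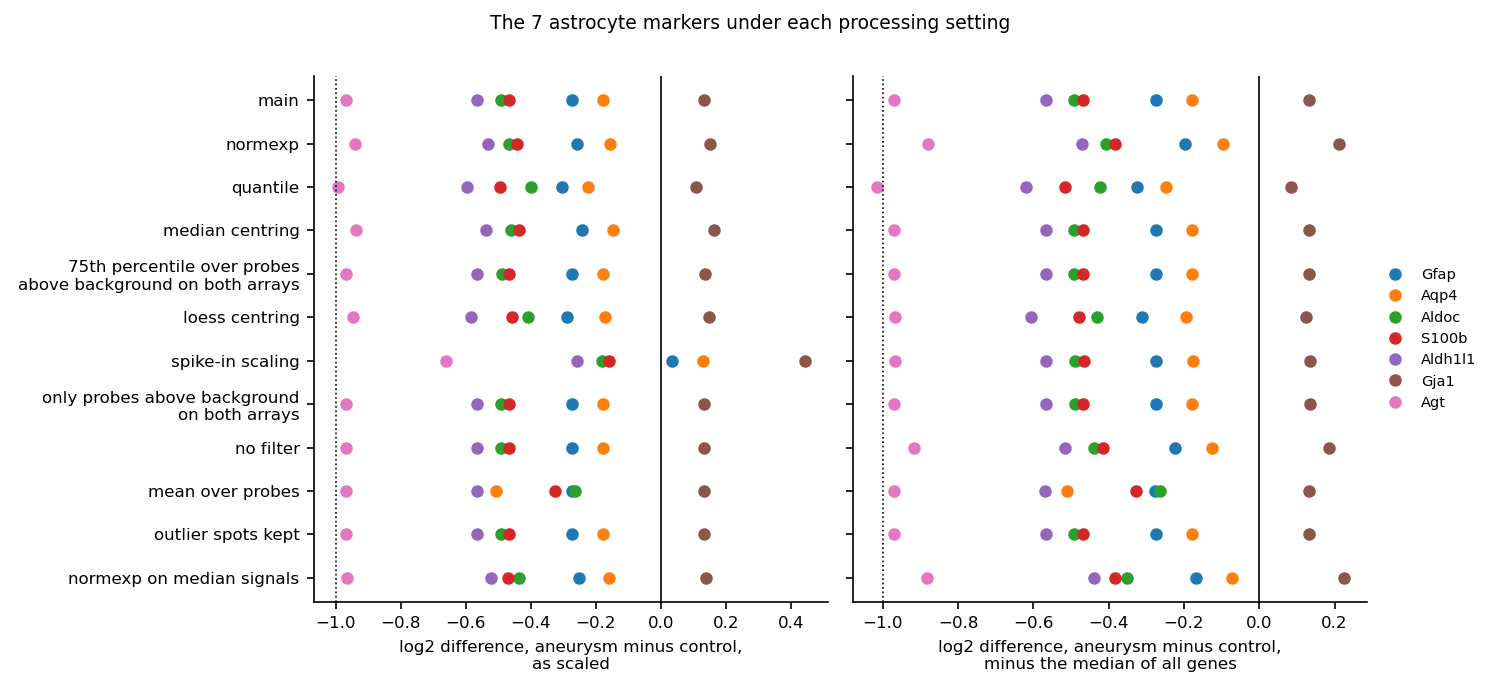
Log2 difference of the 7 astrocyte markers under each processing setting, as scaled (left) and after the median of all genes was subtracted (right). On the left Gfap and Aqp4 pass zero with spike-in scaling, and on the right, where shifts common to all genes cancel by construction, 6 markers lie below zero and Gja1 above it.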

How the data were processed

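Each of the 2 arrays was a one-colour Agilent rat array with 62976 spots. Per the file headers, the authors deposited each spot's processed intensity, with background handled by the scanner software (Feature Extraction, version 10.10.1.1) and no scaling between arrays. Flags for spots well above background, saturation and outliers were deposited too and were used as other values of 0 or 1. Both arrays lay on 1 slide and were read in 1 scan, per the file headers.

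Samples were grouped by title. The log2 of the deposited intensity was taken, and from it the 75th percentile of the array, taken without control spots, was subtracted. Outlier spots (484 and 573) were left out and spots of a probe averaged. The background flag of a probe followed the majority of its spots, and a tie counted as above. Accessions without version were matched to RefSeq genes of GRCr8, used for names only: of 30367 probes, 18006 matched 1 gene and 12361 none. A gene took its brightest probe among those that passed this on either array (11983 genes, 11902 with a value). A gene above background on 1 array received a bound against the lowest value above background on the other. Spot errors came from spot SDs pooled over 20 bins of like signal.

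The members and lists were chosen with earlier results of these data known. Named genes were all members and their paralogs, the 4 largest differences per list and bounds past 2-fold; others are marked in the text. Values of a few genes picked this way are left out of the text. Code was tested on simulated arrays. Alternatives were normexp (offset 50), quantile, median, loess and spike-in scaling, the 75th percentile over probes above background on both arrays, 2 other filters, the mean over probes and outlier spots kept. Normexp ran on the processed intensity in place of mean signals, and a run on median signals was added after the data were seen. limma 3.58.1 and Python 3.11.15 were used.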

Additional observations from a re-analysis of the deposited data

How the results depend on the processing

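The count of astrocyte markers at least 2-fold lower was 0 under all 12 settings. Of the 7 markers, 6 were lower under each except spike-in scaling, where 4 were, against 17.5% of all genes. Their median of -0.47 moved by more than the spot error of its gene (0.06) to -0.40 with quantile normalization, -0.41 with loess centring, -0.32 as a mean over probes and -0.16 with spike-in scaling. The median of the other astrocyte genes moved from -0.29 to -0.16 with quantile normalization, -0.20 with loess centring and 0.023 with spike-in scaling, and their count lower from 20 to 13 with the last. Spike-in scaling adds 0.31 to all values alike, which by construction turned Gfap to 0.034, Aqp4 to 0.13 and the medians of the aquaporin (0.019), intermediate filament (0.10), endfoot (0.22), microglia (0.25), S100 (0.28) and folate (0.28) lists. List medians near zero turned elsewhere too, and the cause was not tested. Quantile normalization turned S100 to 0.041, folate to 0.0081 and microglia to 0.0066. Median centring turned S100 to 0.00092 and folate to 0.0036, loess centring S100 to 0.011, and the mean over probes the endfoot list to 0.059. Normexp turned the connexin list to -0.021, ependyma and choroid plexus to -0.22 and renin-angiotensin to -0.14. Normexp on median signals gave -0.063, -0.20 and -0.18 for these. Without a filter connexins were at -0.11 and renin-angiotensin at -0.21, and with both arrays above background ependyma was at -0.025. Counts of all genes at least 2-fold higher and lower were 105 and 465, and 16 and 213 with normexp, 165 and 406 with quantile, 165 and 415 with loess, 314 and 332 with spike-in scaling, 51 and 237 with both arrays above background, 183 and 756 with no filter, and 14 and 193 with normexp on median signals. No paired analysis was possible because each group has 1 array, and no array could be left out. Signal over background limits the dim genes, whose spot errors reached 0.77 among the genes named.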

Other observations

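Before any scaling between arrays, 5 of the 11 astrocyte marker probes had a higher mean log2 signal in the aneurysm library and 6 a lower one. The unscaled log2 differences were 0.09 for Gfap, 0.50 for Gja1, 0.19, -0.43 and -0.17 for the 3 Aqp4 probes from brightest to dimmest, and -0.60 for Agt.

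A pattern over 2 arrays is a single difference, so it separates genes poorly. The measured genes nearest to Gfap in difference were Ccdc28b, Enc1 and Arl6ip4, all at -0.27, and 830 of 11983 genes lay within 0.05 of Gfap.

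Markers of ependyma and choroid plexus, which border on astrocytes, had a median of 0.03 over 8 genes, 4 lower and 4 higher. In this list Ttr, also a liver product, was 2.67-fold lower (-1.42 ± 0.05), Otx2 was at -1.08 ± 0.44 (-0.58 with normexp) and Foxj1, the regulator of motile cilia, at -0.74 ± 0.14. On the higher side Folr1 was at 0.33 ± 0.19 and Rarres2, named after its value had been seen, at 0.27 ± 0.06.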
